A study of Mus musculus with 4 samples.

Results

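Retinoic acid is made from vitamin A and acts on nuclear receptors, and 9 genes that bind, import, make, break down or sense it are described here in mouse embryonic fibroblasts with and without podoplanin. They are Crabp1, Crabp2, Rbp4, Stra6, Aldh1a1, Aldh1a2, Aldh1a3, Cyp26b1 and Rarb, out of 19751 genes with a named probe set on the array. Each was found by its gene symbol in the platform annotation, taking the brightest probe set of a symbol, and each of the 9 had a single probe set. Crabp2 was picked because its values were higher in the knockout, so its difference is given as a description with no test. The other 8 were chosen because they handle retinoids or respond to them, with earlier results of these data known.

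The cells were primary fibroblasts from Pdpn-/- embryos (Pdpn KO, 2 arrays) and from wild-type embryos (WT, 2 arrays) of the strain labelled C57BL6/J. Embryos were taken between E9.5 and E13.5, and the cells were cultured in fetal calf serum and depleted of cells carrying CD31 or CD45. The labels call the arrays of a genotype biological replicates, and do not state the number of embryos or litters behind each, their stage or the design of the knockout allele. The titles of all arrays carry the tag 'un', to which no meaning is assigned here. Values are intensities on a linear scale, normalised by the authors with RMA, which summarises the probes of a set and makes the arrays' distributions nearly equal. RMA gives no call of presence or absence, and dim genes are compressed towards a floor, so that their fold changes come out too small.

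Pdpn itself read 179 and 201 in Pdpn KO and 4486 and 3106 in WT, a log2 difference of -4.30 ± 0.19 (SE, n = 2 per genotype; limma adjusted p = 0.00501). All samples are labelled female. Xist, transcribed from the inactive X chromosome, read 1831 in Pdpn KO replicate 2, against 48.9 in Pdpn KO replicate 1 and 48.6 and 57.4 in WT. The Y-linked gene Eif2s3y read 35.1 in Pdpn KO replicate 2, against 1673 in Pdpn KO replicate 1 and 1534 and 1474 in WT. In 3 of the 4 arrays the sex-linked genes therefore go against the label, and the difference of each retinoid gene is also given without Pdpn KO replicate 2, which leaves the 3 arrays with Y-linked signal. This also leaves Pdpn KO with no array numbered 2, while WT keeps 1, so replicate number is not balanced in these values. All 10 fibroblast markers listed read between 724 and 18278, while the 7 endothelial markers read between 108 and 475 and the 7 markers of yolk sac or liver, where retinol carrier is made, between 43.6 and 322. Markers of other cells reached 672 for blood, 712 for epithelium, 1637 for mesothelium and 3283 for neural tube.

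Retinol travels in blood on the carrier protein RBP4, enters some cells through the receptor STRA6, and is oxidised first to retinaldehyde and then, by the ALDH1A enzymes, to retinoic acid. Inside the cell retinoic acid is held by the CRABP proteins, cleared by CYP26 enzymes, and bound by RAR receptors, which pair with RXR on DNA and switch on genes that include several parts of the same pathway. In the embryo, local synthesis and clearance of retinoic acid pattern the trunk, limbs and face. Serum-containing medium, in which these cells were grown, is a source of retinol.

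With all genes tested by limma at an adjusted p of 0.05, 2 genes were called between the genotypes, which is 0.0101% of the 19751, both of them lower in Pdpn KO, and 0 of the 9 retinoid genes were called. At an unadjusted p under 0.05, limma gave 296 genes higher (1.5%) and 101 lower (0.511%). With 2 arrays per genotype an exact permutation test cannot go below p = 0.333. The sex-linked genes differ between the Pdpn KO arrays, so these 2 do not come from the same embryo. For WT nothing states that replicates came from separate embryos. The p-values reflect only how far these arrays spread, which may be technical in part. For 3 of the 9 retinoid genes, Crabp2, Cyp26b1 and Rarb, the lower Pdpn KO value exceeded the higher WT value, and for 0 the genotypes were separated the other way. Over all genes this separation was seen in 14.6% with Pdpn KO higher and in 9.74% with Pdpn KO lower. Crabp2 was picked for such a difference, and without it 2 of 8 genes were separated. The mean was higher in Pdpn KO for 7 of the 8, against 10211 of all 19751 genes. Their median log2 difference was 0.13, against 0.00 over all genes. Taken as each Pdpn KO array minus the WT mean, this median was 0.05 for replicate 1 and 0.23 for replicate 2. The highest of the 4 values was that of Pdpn KO replicate 2 in 6 of the 9, against 26.2% of all genes. The lowest was that of WT replicate 1 in 5 of the 9, against 28.6% of all genes.

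**Figure D1:**
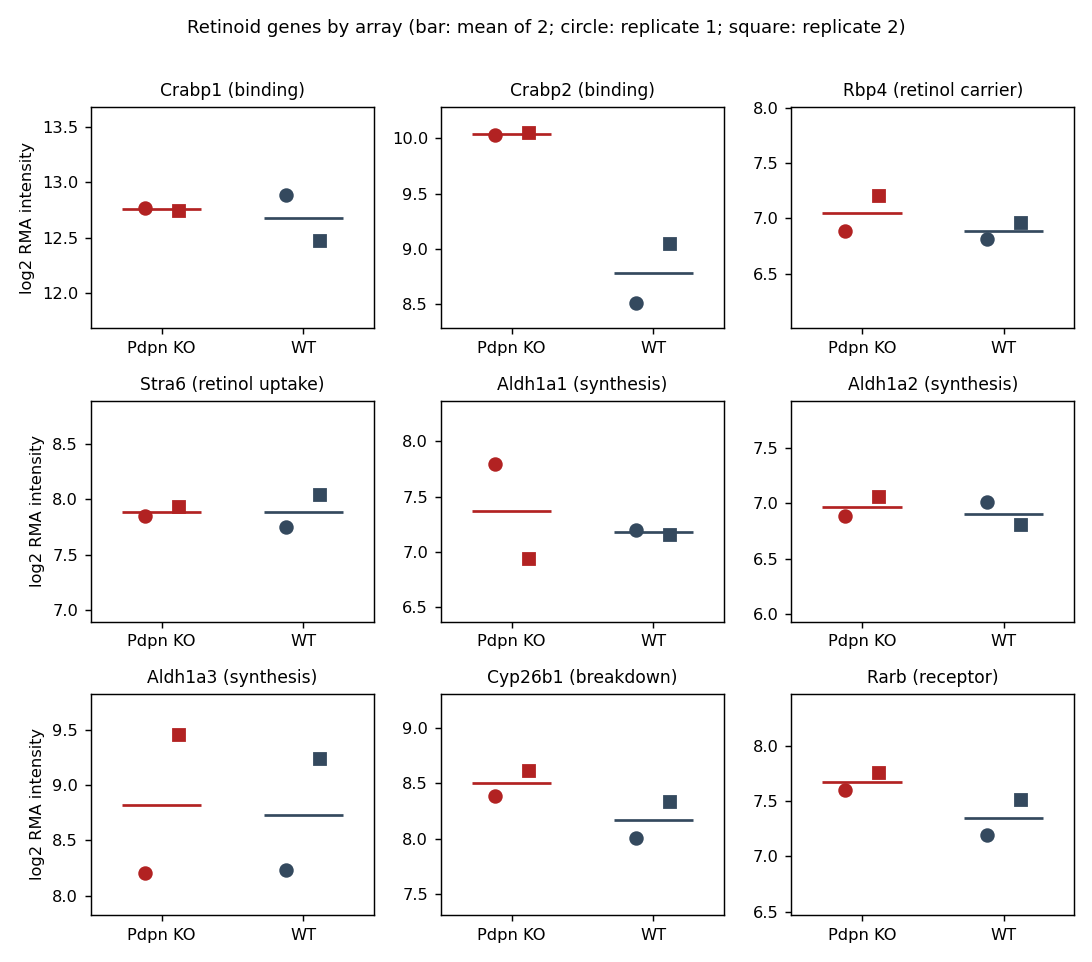
Log2 RMA intensity of each of the 9 retinoid genes in the 4 arrays, Pdpn KO on the left and WT on the right of each panel. Circles are replicates 1, squares are replicates 2 and bars are means of 2 arrays, and every panel spans 2 log2 units. Crabp2, at 1043 and 1063 in Pdpn KO against 365 and 526 in WT on the linear scale, is the gene whose genotypes stand farthest apart, while Aldh1a3 separates replicates 2 from replicates 1 in both genotypes.

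Crabp2 encodes a small cytosolic protein that carries retinoic acid to its receptors in the nucleus, and the gene is itself a known target of retinoic acid. It read 1043 in Pdpn KO replicate 1 and 1063 in Pdpn KO replicate 2, against 365 in WT replicate 1 and 526 in WT replicate 2. The Pdpn KO arrays were nearly equal, the WT arrays differed from each other, and the genotypes did not overlap. On the log2 scale the means were 10.04 ± 0.02 in Pdpn KO and 8.78 ± 0.37 in WT (SD, n = 2 each). The geometric mean was 2.40-fold higher in Pdpn KO, a log2 difference of 1.26 ± 0.18 (SE), on which the gene was picked. Leaving out Pdpn KO replicate 2 gave 1.25 and leaving out Pdpn KO replicate 1 gave 1.28, while leaving out WT replicate 1 gave 1.00 and WT replicate 2 gave 1.53, so its size rested more on which WT array was kept than on which Pdpn KO array. Crabp2, with probe set 10493108, lies on chromosome 3 per RefSeq. Its 4 nearest measured protein-coding neighbours in RefSeq order, Rrnad1, Isg20l2, Nes and Bcan, had log2 differences between -0.24 and 0.14, none of them near that of Crabp2. These neighbours were looked up after the values of Crabp2 were seen.

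Among markers of other cells, 2 of the 7 for mesothelium, the lining of body cavities, were higher in Pdpn KO without overlap, as Crabp2 was. The summed intensity over the 7 mesothelial genes was 3591 and 3055 in Pdpn KO, against 2902 and 2295 in WT, and it is weighted to the brightest, Krt19 and Msln. The members went both ways. Msln, mesothelin, read 1024 and 872 in Pdpn KO and 610.3 and 486 in WT, and Krt19, a keratin, read 1637 and 1195 in Pdpn KO and 1032 and 675 in WT. Wt1, a transcription factor of mesothelium, read 203 and 265 in Pdpn KO and 273 and 297 in WT, and Upk3b, a uroplakin of mesothelium, 185 and 235 in Pdpn KO and 249 and 266 in WT. In all, 2 of the 7 lay higher and 3 lower in both Pdpn KO arrays than in both WT arrays, as did 14.6% and 9.74% of all genes. Of the 7 endothelial markers, 2 lay higher and 1 lower in this way. The lower was Emcn, at 196 and 177 in Pdpn KO and 459 and 351 in WT. Of the 7 neural tube markers, Sox2 lay higher and Nes lower. Over the 7 marker lists examined, which also covered fibroblasts, endothelium, blood, epithelium, yolk sac or liver and neural tube, the median log2 difference lay between -0.24 for mesothelium and 0.03 for fibroblasts, and 0 markers were called. The part of such cells in the Crabp2 values was not tested, and in a bulk sample a change in the number of cells of a type cannot be told apart from a change in RNA per cell.

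Crabp1, the close relative of Crabp2 that binds retinoic acid tightly and is thought to steer it towards breakdown, showed no such separation. It read 6986 and 6844 in Pdpn KO, against 7589 and 5665 in WT. The WT values lay on either side of the Pdpn KO values. The log2 difference of 0.08 ± 0.16 (SE; 95% interval from -0.31 to 0.46; limma adjusted p = 1.00) became 0.09 without Pdpn KO replicate 2. Crabp1 and Crabp2 each had an SD of 0.02 between the Pdpn KO arrays on the log2 scale, as did Dhrs9 and Rdh10 among others. The 2 genes differed in where the WT arrays lay. That the 2 genes' differences are unequal was not tested, because Crabp2 was chosen on its difference.

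The other measured genes for proteins that hold retinoids inside cells overlapped between the genotypes. Fabp5, a fatty acid carrier that can also bind retinoic acid, read 1076 and 1548 in Pdpn KO and 1449 and 1367 in WT (log2 difference -0.12 ± 0.18, SE; limma adjusted p = 1.00). Rbp7, a retinol-binding relative, read 86.9 and 107 in Pdpn KO and 84.0 and 99.3 in WT, where each genotype spans most of the other. In this list 6 of 7 genes were measured and 0 were called. Crabp2, picked for its higher values, was the 1 that did not overlap (14.6% higher and 9.74% lower over all genes).

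The genes that bring retinol to the cell did not separate the genotypes. Rbp4, the plasma carrier of retinol, read 119 and 147 in Pdpn KO, against 112 and 125 in WT. Only Pdpn KO replicate 2 lay above both WT arrays. The log2 difference was 0.16 ± 0.14 (SE; 95% interval from -0.19 to 0.51; limma adjusted p = 1.00) and 0.01 without Pdpn KO replicate 2. Stra6, the membrane receptor for the loaded carrier and a gene named for its stimulation by retinoic acid, read 229.9 and 243 in Pdpn KO, against 215 and 263 in WT. Both Pdpn KO values lay between the WT values, with a difference of -0.01 ± 0.14 and a 95% interval from -0.34 to 0.33 (limma adjusted p = 1.00), and -0.05 when Pdpn KO replicate 2 was left out. Over the 10 genes of retinol delivery and storage the median was 0.01 and 0 were called. Of these, 0 were free of overlap, against 14.6% higher and 9.74% lower over all genes. The lowest value was that of Lrp2, an endocytic receptor of epithelia that takes up retinol carrier, which read 221 and 153 in Pdpn KO and 414 and 172 in WT. Its difference of -0.54 ± 0.40 (limma adjusted p = 1.00) rested on WT replicate 1, the highest of the 4. It turned to 0.10 without WT replicate 1 and was -1.17 without WT replicate 2, which leaves WT replicate 1 as the only WT array. Rbp3, a retinoid carrier of the retina, read 64.6 and 81.0 in Pdpn KO and 73.8 and 86.6 in WT, and Dgat1, an acyltransferase that can esterify retinol, 1175 and 989 in Pdpn KO and 1052 and 1036 in WT, with overlap in both.

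The 3 retinaldehyde dehydrogenases that make retinoic acid overlapped between the genotypes, and each differed by more between the Pdpn KO replicates than between the genotype means. Aldh1a1 read 223 in Pdpn KO replicate 1 and 123 in Pdpn KO replicate 2, against 147 and 142 in WT. The highest and the lowest of its 4 values were both in Pdpn KO, with the WT arrays close together between them. The log2 difference was 0.19 ± 0.26 (SE; 95% interval from -0.44 to 0.83; limma adjusted p = 1.00). It was 0.62 when Pdpn KO replicate 2 was left out and -0.24 when Pdpn KO replicate 1 was.

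Aldh1a2, the main enzyme of retinoic acid synthesis in the embryonic trunk, read 118 and 133 in Pdpn KO, against 129 and 111 in WT. The 4 values overlapped within a narrow range. The difference was 0.07 ± 0.13 (SE; 95% interval from -0.25 to 0.39; limma adjusted p = 1.00), and -0.02 without Pdpn KO replicate 2. Aldh8a1, a more distant relative in the same list, read 47.2 and 49.3 in Pdpn KO and 51.4 and 56.8 in WT (-0.16 ± 0.12; limma adjusted p = 1.00).

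Aldh1a3, which makes retinoic acid in the developing eye, nose and forebrain, had the widest spread of these enzymes. It read 294 in Pdpn KO replicate 1 and 697 in Pdpn KO replicate 2, against 299 in WT replicate 1 and 604 in WT replicate 2. Both replicates numbered 2 were high and both numbered 1 were low, by 1.25 log2 units in Pdpn KO and by 1.01 in WT. Between genotypes the log2 difference was 0.09 ± 0.46 (SE; 95% interval from -1.03 to 1.21; limma adjusted p = 1.00), so a change of 2-fold in either direction lies within it. The fit takes no account of replicate number, so this interval counts the difference between replicates 1 and 2 as spread. The log2 difference was -0.53 when Pdpn KO replicate 2 was left out and 0.71 when Pdpn KO replicate 1 was. With 1 array left out, replicate numbers are no longer balanced between the genotypes, so these 2 values include the difference between replicate numbers. Same-numbered arrays lay closer, at 294 against 299 and 697 against 604. What arrays of the same number share is not given in the labels. Of the 9 retinoid genes, 6 read higher in replicate 2 than in replicate 1 in both genotypes.

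**Figure D2:**
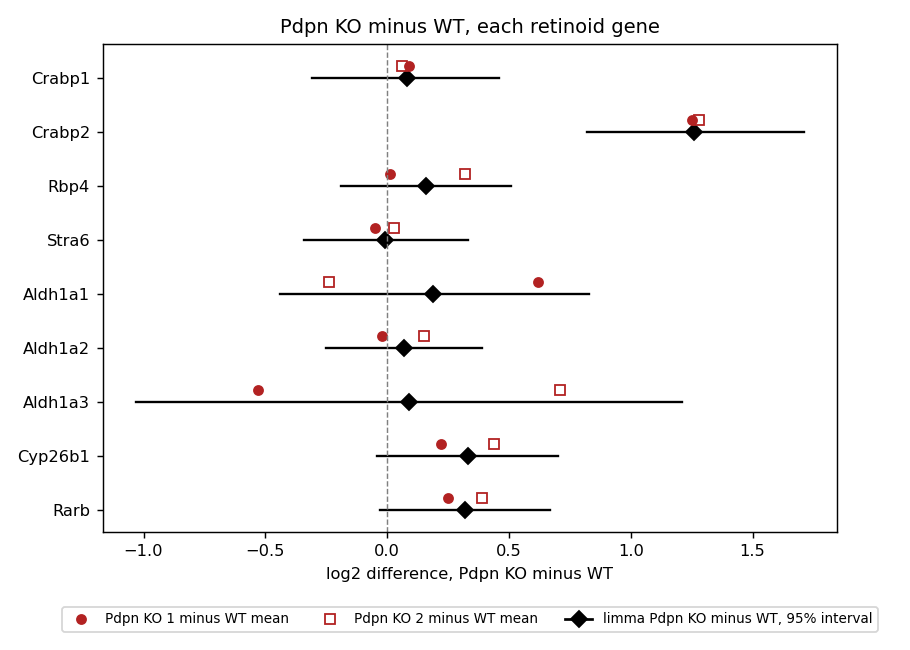
Log2 difference of Pdpn KO minus WT for the 9 retinoid genes. Diamonds with lines are the limma estimate and its 95% interval, and filled circles and open squares are Pdpn KO replicates 1 and 2, each minus the WT mean. Crabp2 lies at 1.26 and was picked on this difference, so its interval, from 0.82 to 1.71, is drawn as a description only. The intervals of the other 8 genes include 0, and the Pdpn KO arrays of Aldh1a1 and Aldh1a3 lie on opposite sides of 0.

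Of the enzymes upstream, which interconvert retinol and retinaldehyde, 21 were measured, with a median log2 difference of 0.03. Here 5 were higher and 0 lower without overlap (14.6% and 9.74% over all genes), and 0 were called. Dhrs9, a short-chain dehydrogenase with retinol-oxidising activity, had the smallest p in this list. It read 979 and 999 in Pdpn KO, against 727 and 601 in WT, a difference of 0.58 ± 0.13 (SE; limma adjusted p = 1.00). Rdh12, a retinaldehyde reductase of photoreceptors, read 108 and 101 in Pdpn KO and 83.4 and 90.3 in WT. Adh5, a widely expressed alcohol dehydrogenase, read 2228 and 2033 in Pdpn KO and 1966 and 1983 in WT (0.11 ± 0.11).

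Cyp26b1 encodes a cytochrome P450 that destroys retinoic acid, in the limb bud among other places, and responds to it. It read 336 and 392 in Pdpn KO, against 259 and 322 in WT. The genotypes did not overlap, though by a gap smaller than the spread within either genotype. The log2 difference was 0.33 ± 0.15 (SE; 95% interval from -0.04 to 0.70; limma adjusted p = 1.00), and 0.22 without Pdpn KO replicate 2. Its relatives did not share the separation. Cyp26a1 read 76.2 and 86.9 in Pdpn KO and 83.3 and 80.3 in WT, and Cyp26c1 read 246 and 263 in Pdpn KO and 244 and 273 in WT. The Y-linked genes Eif2s3y and Kdm5d read 35.1 and 98.2 in Pdpn KO replicate 2, which lacks Y-linked signal. Cyp26a1 lay between these values and may hold no signal of its own.

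Rarb encodes the retinoic acid receptor beta, the textbook example of a gene switched on by its own ligand. It read 194 in Pdpn KO replicate 1 and 215 in Pdpn KO replicate 2, against 147 in WT replicate 1 and 183 in WT replicate 2. The genotypes did not overlap, and the lower Pdpn KO value lay just above the higher WT value. These are low readings, around the 179 and 201 of Pdpn itself in Pdpn KO. The log2 means were 7.67 ± 0.10 in Pdpn KO and 7.35 ± 0.23 in WT (SD, n = 2 each). The difference of 0.32 ± 0.15 (SE; 95% interval from -0.03 to 0.67; limma adjusted p = 1.00) was 0.25 without Pdpn KO replicate 2.

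The promoter of Rarb is shown because it holds the kind of site through which retinoic acid receptors are known to act, a direct repeat of half-sites with a spacer of 5 bases. The half-site AGGTCA was searched for with its variants AGTTCA or GGGTCA or GGTTCA, in any pair with a spacer of 1, 2 or 5 bases of any kind, on both strands of the 250 bases before each RefSeq start. Repeats of different spacing may share a half-site. The first line is from GRCm38.p6 chr14:16575477-16575726, minus strand, and runs up to the base before the start. The second is a stretch of the Cyp26a1 promoter, from chr19:37697756-37697807, plus strand, shown as the other pathway gene with such a repeat, which lies there on the opposite strand. Capitals mark the repeat, at -53 to -37 from the start in Rarb and at -32 to -16 in Cyp26a1.
Rarb: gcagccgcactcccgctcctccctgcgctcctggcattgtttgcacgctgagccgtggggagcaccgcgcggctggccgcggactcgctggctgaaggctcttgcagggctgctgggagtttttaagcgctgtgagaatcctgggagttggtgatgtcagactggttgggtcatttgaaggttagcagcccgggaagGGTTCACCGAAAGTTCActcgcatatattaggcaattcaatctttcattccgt
Cyp26a1: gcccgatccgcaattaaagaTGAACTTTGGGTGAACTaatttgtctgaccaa

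Of 32851 windows, 29 held a repeat with the 5-base spacer (0.0883%), 57 with the 2-base spacer (0.174%) and 54 with the 1-base spacer (0.164%). RefSeq windows were listed for 7 of the 9 retinoid genes, all but Crabp2 and Aldh1a3, and Rarb was the 1 of these with a repeat of any of the 3 spacings. A match describes the letters only. Beside these sequences stand 194 and 215 in Pdpn KO against 147 and 183 in WT for Rarb, and 76.2 and 86.9 in Pdpn KO against 83.3 and 80.3 in WT for Cyp26a1, whose values overlapped.

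The other receptors were not called. Of 7 genes in this list, Rarb included, 4 lay higher without overlap and 0 lower (14.6% and 9.74% over all genes), with a median log2 difference of 0.08. Rarg, the receptor gamma of skin and skeletal tissue, read 1669 and 1502 in Pdpn KO, against 1249 and 1390 in WT (0.26 ± 0.12, SE; limma adjusted p = 1.00). Rxra, the common partner receptor, read 1201 and 1091 in Pdpn KO and 1041 and 1043 in WT. Ppard, a receptor for fatty acids to which Fabp5 can deliver retinoic acid, read 1611 and 1772 in Pdpn KO and 1541 and 1654 in WT. Among 8 coregulators the median was 0.01 and 0 were called. Hdac3, a deacetylase of the corepressor complex, read 4489 and 4446 in Pdpn KO and 4057 and 4199 in WT, and Ep300, a coactivating acetyltransferase, 2058 and 1652 in Pdpn KO and 2132 and 1807 in WT.

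**Figure D3:**
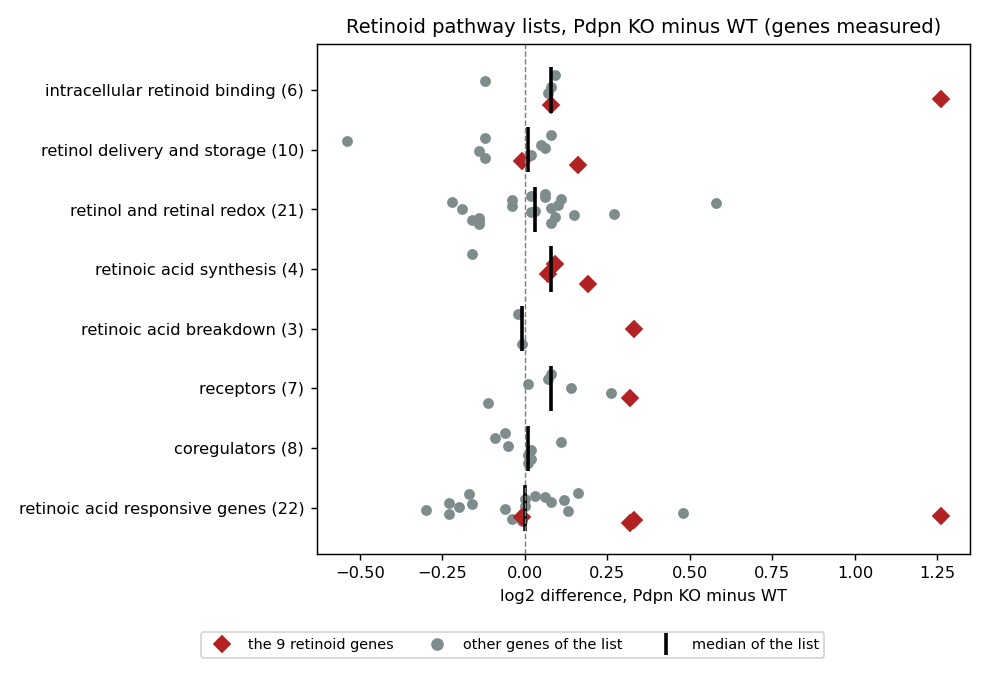
Log2 difference of Pdpn KO minus WT for the measured genes of 8 retinoid pathway lists, with the number of genes beside each name. Red diamonds are the 9 retinoid genes, grey circles other genes of a list, and black bars the medians, which lie between -0.01 and 0.08. Crabp2, at 1.26, stands in the lists of binding proteins and of responsive genes.

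Genes known to respond to retinoic acid did not move 1 way. Of 22 measured, 10 had a higher and 12 a lower mean in Pdpn KO, with a median log2 difference of 0.00, the same as over all genes. Without overlap, 4 were higher and 1 lower, against 14.6% and 9.74% of all genes, and 0 were called. The 4 were Crabp2, picked for this, Cyp26b1, Rarb and Rarres1. Rarres1, a gene named as a responder to retinoic acid receptors, read 149 and 169 in Pdpn KO, against 88.7 and 146 in WT, and WT replicate 1 stood apart from the other 3 arrays (0.48 ± 0.23, SE; limma adjusted p = 1.00). The 1 lower gene was Tgm2, tissue transglutaminase, at 966 and 840.4 in Pdpn KO and 1042 and 1066 in WT (-0.23 ± 0.12; limma adjusted p = 1.00). Rai14, a gene named for its induction by retinoic acid, read 4214 and 3704 in Pdpn KO and 4047 and 3680 in WT, where the genotypes overlapped.

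The Pdpn KO arrays disagreed with each other for several of these genes, which were chosen after their values were seen. Meis2, a homeobox factor of the proximal limb, read 2741 in Pdpn KO replicate 1 and 1757 in Pdpn KO replicate 2, against 2577 and 2563 in WT. Nr2f1, an orphan nuclear receptor, read 411 and 193 in Pdpn KO, against 257 and 277 in WT. Dhrs3, which reduces retinaldehyde back to retinol and is induced by retinoic acid, read 816 and 502 in Pdpn KO, against 555 and 776 in WT. For each of the 3, Pdpn KO replicate 2 was the lowest of the 4 arrays, as it was for Aldh1a1. Over the 22 responsive genes it was the lowest for 8 and the highest for 8, against 21.3% and 26.2% of all genes. That array is also the 1 with Xist signal, and the part of sex or of any other feature of that culture in these values was not tested.

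**Figure D4:**
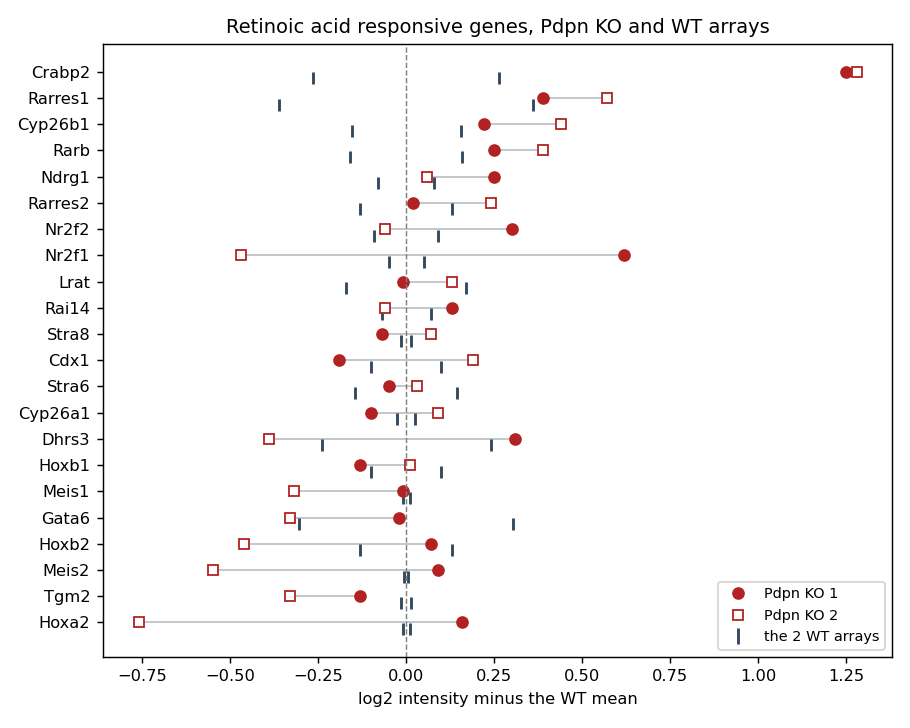
Log2 intensity minus the WT mean for 22 genes known to respond to retinoic acid. Filled circles are Pdpn KO replicate 1, open squares Pdpn KO replicate 2 and dark ticks the 2 WT arrays. Crabp2, Rarres1, Cyp26b1 and Rarb lie to the right of both WT arrays in both Pdpn KO arrays, whereas for Nr2f1, Meis2 and Dhrs3 the open square lies to the left of all other symbols.

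Genes with a profile most like that of Crabp2 were ranked by the root mean square difference of log2 values, each centred on its own mean over the 4 arrays, among 18221 other named genes. The closest were Mme, the peptidase neprilysin (0.130), Ndnf, a secreted neurotrophic factor (0.140), Serpinb10, a protease inhibitor (0.163), Prg4, lubricin (0.166), and Pcp4l1 (0.203). Mme read 813 and 794 in Pdpn KO, against 257 and 323 in WT. Prg4 read 657 and 489 in Pdpn KO, against 198 and 264 in WT. All 5 were higher in both Pdpn KO arrays, which the choice of measure fixes. For Aldh1a3 the closest were Srpx (0.071), Epha3, an ephrin receptor (0.072), and Fndc1 (0.088). Epha3 read 185 and 385 in Pdpn KO, against 179 and 372 in WT, again high in both replicates numbered 2. None of the 9 retinoid genes was among the nearest genes of Crabp2 or Aldh1a3. Of the 9, only Crabp2 and Aldh1a3 spanned over 1 log2 unit, so the others could hardly be listed. Their absence says nothing on whether the 9 vary together.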

How the data were processed

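The authors deposited 1 linear intensity for each probe set; per the submitters' processing notes it was computed with RMA. For the version and settings of RMA and the genome build, nothing is given in the sources used here. Both deposited tables hold 24679 probe sets and differ by at most 0.005; the series value table was used. Log2 was taken with no pseudocount. Gene symbols came from the platform annotation (21354 with 1 symbol, 1275 with several, 2050 with none), and the brightest per symbol was kept, giving 19751 genes. The median of the arrays lay between 283.5 and 290.3.

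The difference of Pdpn KO minus WT was fitted in R 4.3.3 with lmFit and eBayes of limma 3.58.1 and tested on both sides, with Benjamini-Hochberg adjustment over the 19751 genes and a threshold of 0.05, after the fit had been tested on simulated data. A ± after a difference is its standard error. The number of arrays limits the precision.

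The 9 genes and the 8 pathway lists (78 names, 74 measured) were chosen with earlier results of these data known. From each list the 2 genes outside the 9 with the smallest p and the brightest were named, with the 5 genes most like Crabp2 and the 3 most like any other of the 9 spanning over 1 log2 unit. Alternatives were the other table, median centring, quantile normalisation, a filter on dim genes, another prior, the mean of probe sets, a pseudocount, the replicate number as a block and each array left out. Promoters are from RefSeq, GRCm38.p6. Figures were drawn with matplotlib 3.10.9.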

Additional observations from a re-analysis of the deposited data

How the results depend on the processing

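The number of genes called, 2 with all arrays, was 1 without genes below the median level, 1 with a pseudocount of 32, 9 with an intensity-dependent robust prior, 34 with the replicate number as a block, and between 5 and 100 with 1 array left out. Of the 9 retinoid genes 0 were called, against 1 with the robust prior, 1 with the replicate block and 0 to 1 with 1 array left out. The gene counted is the 1 picked on this difference, so these counts support nothing about it. Over the 8 lists the count was 1 with the robust prior, 1 with the replicate block and 0 to 2 with 1 array left out. Beside that same gene they hold Lrp2, lower, without WT replicate 2. The deviations of same-numbered arrays from their genotype means correlated with r = 0.581 across genes, which are not independent replicates, and the labels do not say what a number marks. With the block, 27 of the 34 calls were higher. With 1 array left out, the difference ran from -0.13 to 0.29 for Crabp1, from -0.15 to 0.14 for Stra6, from -0.24 to 0.62 for Aldh1a1, from -0.04 to 0.18 for Aldh1a2 and from -0.53 to 0.71 for Aldh1a3, each crossing 0, and from 0.01 to 0.32 for Rbp4, 0.17 to 0.49 for Cyp26b1, 0.16 to 0.48 for Rarb and 1.00 to 1.53 for Crabp2. A genotype left with 1 array was assumed to vary like the other. No detection call exists. In Pdpn KO replicate 2, which lacks Y-linked signal, Eif2s3y read 35.1, Uty 36.0 and Kdm5d 98.2. Genes reading in that range, Cyp26a1, Aldh8a1 and Rbp3 among them, may hold no signal of their own. Pdpn read 179 and 201 in Pdpn KO, where the allele design is not stated, so how much of this is background is unknown. Rbp4 and Aldh1a2 read below both values in every array, and Aldh1a1 and Rarb read around them, so these may also hold little signal. Small differences there do not show unchanged expression. How far low intensity limits a brighter gene could not be stated.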
